A study of Mus musculus with 12 samples.

Results

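The transcripts of the vascular endothelial growth factor (VEGF) axis were examined in SVR angiosarcoma xenografts. They comprise the receptor genes Kdr, Flt1 and Flt4, the neuropilin genes Nrp1 and Nrp2, and the ligand genes Vegfa, Vegfb, Vegfc, Vegfd and Pgf. Members were chosen by gene name, and all 10 were found, each once, among the 54232 genes of the count table. SVR is a mouse endothelial cell line transformed with oncogenic Ras, used here as 1 line and implanted under the skin of athymic nude mice, which lack T cells and were 8 to 12 weeks old by the study's methods. The labels give the strain as C57BL/6 for every sample. Tumors were established for 3 to 7 days and then treated by daily gavage. Control mice received the vehicle, trametinib mice 1 mg/kg of the MEK inhibitor, cediranib mice 3 mg/kg of the VEGF receptor inhibitor, and combination mice both drugs at these doses, with 3 tumors in each of the 4 groups. Every group carried the same tumor line and the same host. Dosing went on until a tumor ulcerated or outgrew its limit, and the study ran 2 experiments with different end points, and which one gave these tumors is not stated, so the days of dosing may not match across groups.

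VEGF ligands signal through receptor tyrosine kinases on endothelium. VEGF-A binds VEGFR1, encoded by Flt1, and VEGFR2, encoded by Kdr, and VEGFR2 carries most of its mitogenic signal. VEGF-B and placental growth factor, the product of Pgf, bind VEGFR1 only, whereas VEGF-C and VEGF-D act through VEGFR3, encoded by Flt4, which in adults is best known from lymphatic vessels. Neuropilins are co-receptors without a kinase domain, which bind VEGF isoforms and also class 3 semaphorins. Cediranib blocks the kinase activity of the 3 receptors and trametinib blocks MEK, which lies downstream of them. Transcript levels do not report kinase activity, and gene counts do not separate soluble from membrane-bound forms of Flt1 or Nrp1.

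The libraries held 9478865 to 11666094 counts. By library totals alone, before the correction described below, 3 counts equalled 0.257 to 0.316 CPM (reads of a gene scaled to a common library size). They are the upper limit for a gene with 0, for counting error only. RNA was captured with exome probes, so the level of a gene also depends on its probes. Whole tumors were sequenced, in which fewer cells of a type and less RNA per cell cannot be told apart, and tumor and host RNA are both from mouse. CPM values are scaled with TMM factors (edgeR's correction for library composition). A gene passed at a false discovery rate (FDR) under 0.05 in the quasi-likelihood test of edgeR, adjusted by Benjamini-Hochberg over all 12897 genes tested. Every FDR below is from this test. The study's own threshold also asks for a log2 fold change of at least 1.5 in either direction, and genes that met both are called. Of the 10 members 9 were tested, and Pgf was too low. Of 16 genes induced by ERK, 15 were tested, and 10 passed lower with trametinib, 11 with the combination and 0 with cediranib, compared to control by edgeR. Of all genes 3.47%, 5.13% and 0% passed lower in this order. The median log2 fold change of the 15 was -2.31, -1.60 and 0.01. In combination compared to trametinib treated tumors 4 passed higher, beside 0.721% of all genes. For cediranib DESeq2 also passed 0 of the 15, and 0 had an unadjusted p under 0.05, beside 4.32% of all genes.

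The bases before the annotated start are shown for Kdr and Flt1, receptor genes that were lower with trametinib-containing treatment, and for Nrp2 and Vegfd, which were higher. Each run ends at the first base before the gene as the count table spans it. Capitals mark a GC box, written GGGCGG or CCGCCC on the shown strand. Sequences are from RefSeq on GRCm38.p6, 5′ to 3′ on the strand of the gene.
Kdr, chr5:75978459-75978705, minus strand: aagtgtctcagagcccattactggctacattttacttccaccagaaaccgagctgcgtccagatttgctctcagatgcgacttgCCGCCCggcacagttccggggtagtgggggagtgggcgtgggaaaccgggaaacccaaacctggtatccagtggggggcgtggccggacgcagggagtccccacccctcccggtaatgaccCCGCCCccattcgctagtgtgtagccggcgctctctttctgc
Flt1, chr5:147726012-147726261, minus strand: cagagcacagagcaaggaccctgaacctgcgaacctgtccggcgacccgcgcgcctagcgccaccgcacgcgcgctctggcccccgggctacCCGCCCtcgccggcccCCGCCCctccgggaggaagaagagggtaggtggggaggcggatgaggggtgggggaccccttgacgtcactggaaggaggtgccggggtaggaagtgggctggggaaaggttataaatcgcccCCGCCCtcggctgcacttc
Nrp2, chr1:62703067-62703284, plus strand: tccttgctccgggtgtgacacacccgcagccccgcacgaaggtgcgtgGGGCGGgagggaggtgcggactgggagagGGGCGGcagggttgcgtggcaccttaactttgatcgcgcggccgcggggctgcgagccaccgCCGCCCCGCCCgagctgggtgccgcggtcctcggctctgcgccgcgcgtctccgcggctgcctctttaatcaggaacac
Vegfd, chrX:164373272-164373377, plus strand: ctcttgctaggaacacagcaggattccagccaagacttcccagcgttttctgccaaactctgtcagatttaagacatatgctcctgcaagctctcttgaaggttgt

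The Kdr run held 2 GC boxes, the Flt1 run 3 and the Nrp2 run 4, of which a pair overlaps by 1 base. The Vegfd run held 0. In the full windows of 250 bases before the RefSeq start, a GC box was found for 9 of 10 members, and the exception was Vegfd. The motif occurred in 32.7% of all 32851 such windows. GC content was 42.4% for Vegfd and up to 76.4% among the members (Vegfb), compared to a median of 52.4% over all windows. The ETS sequence CGGAAG (or CTTCCG) and the AP-1 sequence TGANTCA were in the window of 0 of 10 members, against 13.6% and 6.75% of all windows. For Flt4, Nrp1 and Pgf the windows lay inside the gene as the count table spans it, as did the second of the windows of Vegfa and 144 of the 250 bases of the Vegfd window. Vegfa and Pgf have a pair of starts each. Letters in a window are a description and not evidence of binding.

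Per kilobase of exon, Vegfa was the most abundant member in each of the 4 groups. In control tumors it had 82.2 ± 28.9 CPM per kilobase (mean ± SD, n = 3), followed by Nrp2 with 19.5 ± 2.41, Vegfb with 8.30 ± 1.13 and Nrp1 with 2.701 ± 0.697 CPM per kilobase. The ranges of these 4 neighbours did not overlap in control. Below them Vegfc had 1.85 ± 1.84, Flt1 1.45 ± 0.167, Kdr 1.23 ± 0.881, Flt4 0.953 ± 0.689, Vegfd 0.493 ± 0.293 and Pgf 0.192 ± 0.227 CPM per kilobase. Each of these overlapped its neighbour in the order, and Vegfc overlapped Nrp1. All 3 kinase receptors thus lay below Vegfa, Vegfb and both neuropilins. In cediranib treated tumors the order was the same. In trametinib and combination treated tumors Vegfd moved up to the fifth place, with 2.15 ± 0.394 and 2.21 ± 0.740 CPM per kilobase, and its range there no longer overlapped the next gene in the order. Because probe capture differs between genes, these orders hold for captured RNA.

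**Figure D1:**
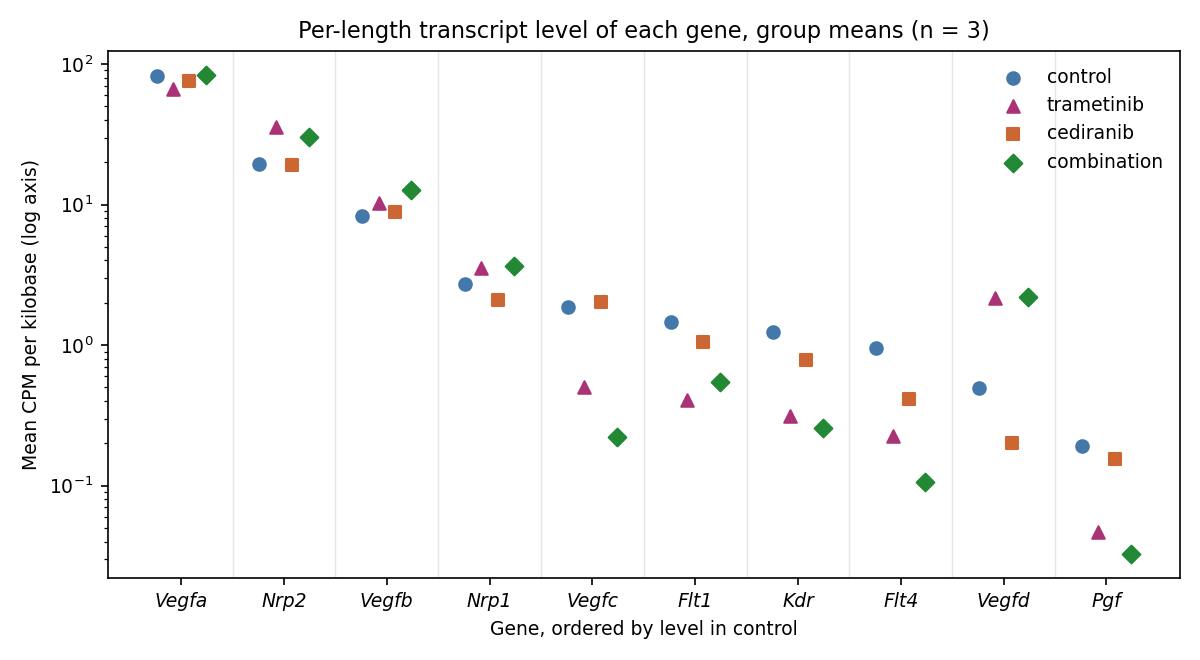
Mean CPM per kilobase (log axis) of each of the 10 genes, ordered by the level in control, with 1 symbol per group (mean of 3 tumors). Vegfa, Nrp2, Vegfb and Nrp1 are the first 4 in every group, and Vegfd is the gene that lies higher in the trametinib and combination groups than its place in control.

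Flt1 fell with trametinib. Control tumors had 18.1, 18.5 and 22.2 CPM of Flt1 (chromosome 5, 147561604 to 147726011, minus strand) and trametinib treated tumors 6.99, 4.42 and 5.19 CPM. All 3 treated tumors were below all 3 controls. The estimate on the log2 scale was -1.82 (standard error 0.35, FDR 0.00946, edgeR), and it stayed between -2.02 and -1.69 as single libraries were left out. In cediranib treated tumors Flt1 had 10.99, 17.5 and 13.9 CPM, also all below the controls, but the log2 fold change of -0.47 (95% interval -1.20 to 0.25) did not pass. In the combination it had 8.38, 3.36 and 10.4 CPM, which is -1.41 on the log2 scale against control (standard error 0.34, FDR 0.0248, edgeR). This passed the test but was smaller than the study's minimum of 1.5. It did not pass without control replicate 2 (FDR 0.0583) or 3 (FDR 0.0859) or without combination replicate 1 (FDR 0.0591, edgeR).

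Kdr (chromosome 5, 75932827 to 75978458, minus strand) varied more among the controls, with 4.68, 8.62 and 20.003 CPM. Trametinib treated tumors had 1.54, 4.07 and 2.85 CPM and combination treated tumors 2.42, 2.45 and 2.13 CPM, all below the lowest control. Cediranib treated tumors had 5.70, 11.7 and 3.64 CPM and overlapped the controls. The combination lowered Kdr compared to control, with a log2 value of -2.24 (standard error 0.56, FDR 0.0287, edgeR). With trametinib alone the estimate was -1.98 (standard error 0.55, FDR 0.0566, edgeR), which did not pass. Control replicate 3 carried much of both values. Without it the log2 fold change was -1.50 for the combination (FDR 0.124, edgeR) and -1.24 for trametinib (FDR 0.234, edgeR). The combination no longer passed without any 1 of control replicates 2 and 3 or the 3 combination libraries, whereas trametinib passed without control replicate 1 (FDR 0.0256, edgeR). In a model that also holds an endothelial marker score, described below, the combination estimate changed direction and did not pass.

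Flt4 (chromosome 11, 49609263 to 49652739, plus strand) showed the same unevenness, with 3.92, 5.27 and 14.3 CPM in control. It had 3.00, 1.40 and 1.17 CPM with trametinib, 1.90, 6.34 and 2.01 CPM with cediranib and 0.606, 0.545 and 1.49 CPM with the combination. Only the cediranib values overlapped the controls. The log2 fold change was -3.13 with the combination (standard error 0.68, FDR 0.0158, edgeR), -2.06 with trametinib (standard error 0.63, FDR 0.0784, edgeR) and -1.19 with cediranib (95% interval -2.50 to 0.12). The combination did not pass without control replicate 3 (FDR 0.0664), combination replicate 1 (FDR 0.0617) or combination replicate 2 (FDR 0.0638, edgeR). The combination libraries held 6, 6 and 16 counts of Flt4, so its precision is limited by counting.

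Of the neuropilins Nrp2 rose and Nrp1 did not pass. Nrp2 (chromosome 1, 62703285 to 62818695, plus strand) had 254, 239 and 199 CPM in control and rose to 415, 394 and 451 CPM with trametinib. The groups did not overlap, and the rise was 0.86 on the log2 scale (standard error 0.16, FDR 0.00841, edgeR), between 0.76 and 0.92 as single libraries were left out. The combination treated tumors had 304, 374 and 397 CPM, all above the controls, by 0.64 on the log2 scale (standard error 0.16, FDR 0.0298, edgeR). This no longer passed without control replicate 2 (FDR 0.0781) or 3 (FDR 0.121), or without combination replicate 2 (FDR 0.084) or 3 (FDR 0.0945, edgeR). Cediranib treated tumors had 205, 280.2 and 191 CPM, overlapping the controls, and a log2 fold change of -0.03 (95% interval -0.38 to 0.32). Neither rise reached the minimum of 1.5.

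Nrp1 (chromosome 8, 128358604 to 128503363, plus strand; a microRNA gene, Mir1903, overlaps an exon on the same strand) overlapped between all groups. It ran from 19.1 to 32.5 CPM in control, 23.1 to 47.3 CPM with trametinib, 12.1 to 32.9 CPM with cediranib and 24.7 to 49.9 CPM with the combination. The log2 fold changes against control were 0.38 (95% interval -0.46 to 1.22), -0.37 (-1.22 to 0.48) and 0.43 (-0.41 to 1.27) in this order. The median ratio of Nrp2 to Nrp1 per kilobase was 6.08 in control, 10.45 with trametinib, 10.4 with cediranib and 9.56 with the combination, and its range over single tumors, 5.94 to 11.01 in control, overlapped that of each treatment.

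**Figure D2:**
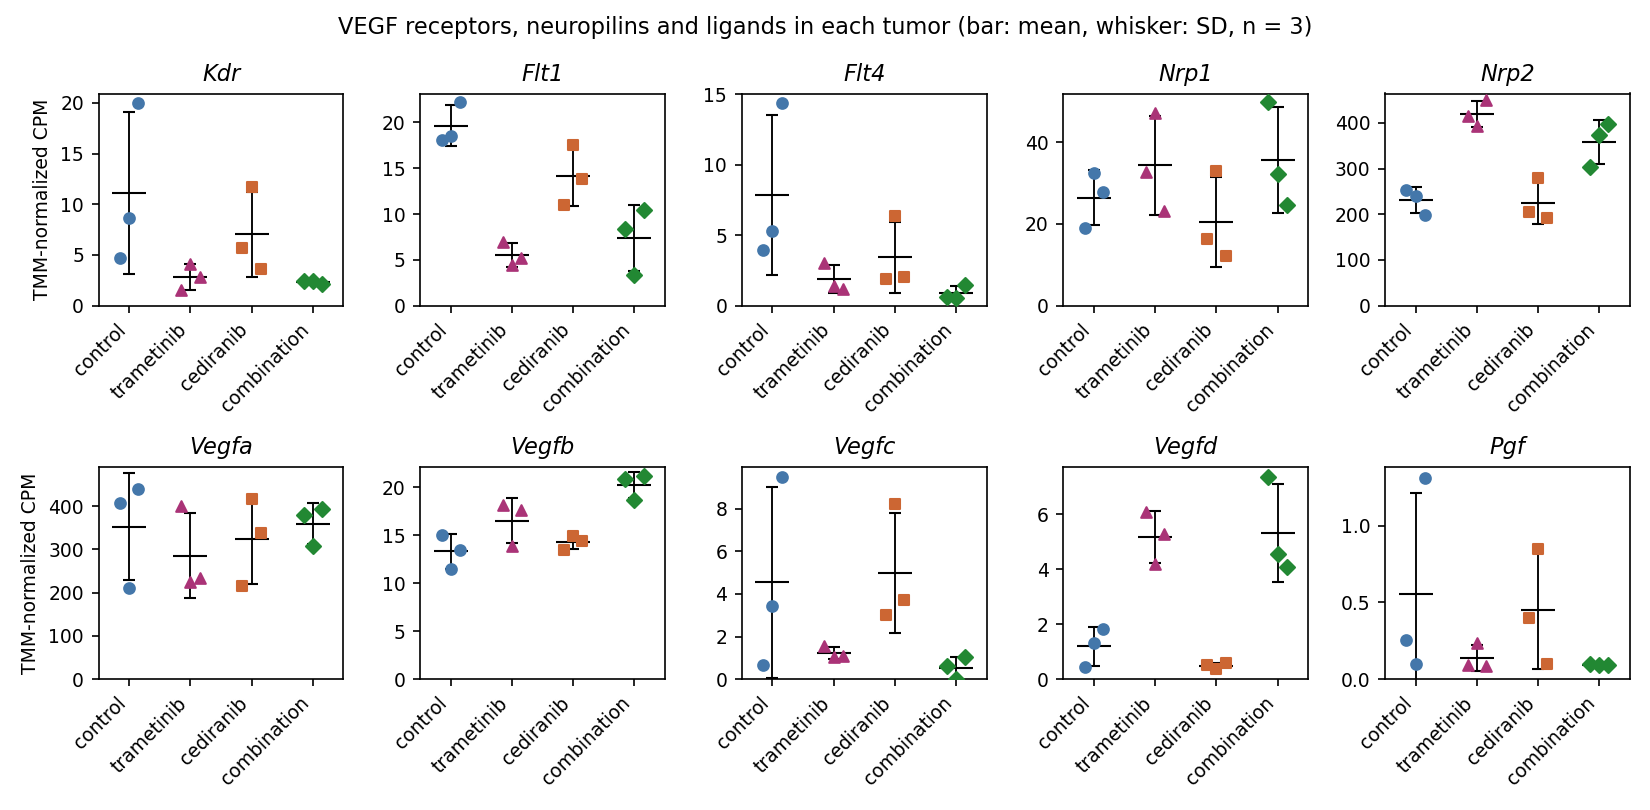
TMM-normalized CPM (vertical axes, from 0) of the 10 genes in every tumor, with 1 panel per gene and 1 symbol per tumor, and the mean and SD of each group of 3. The trametinib and combination symbols of Flt1 and Kdr lie below all control symbols, those of Nrp2 and Vegfd lie above them, and Vegfa overlaps in all groups.

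Among the ligands, Vegfd rose the most with trametinib. Vegfd (chromosome X, 164373378 to 164402650, plus strand), also known as Figf, the c-fos induced growth factor, had 0.426, 1.32 and 1.82 CPM in control and 6.08, 4.19 and 5.27 CPM with trametinib. The combination treated tumors had 7.37, 4.54 and 4.08 CPM. Both treatments were above all controls, with log2 fold changes of 2.14 (standard error 0.43, FDR 0.0118, edgeR) and 2.17 (standard error 0.43, FDR 0.0105, edgeR). Both were called, and both stayed called with any single library left out, with log2 fold changes from 1.71 to 2.62. Neither passed in a model that also holds an endothelial marker score, nor did the combination with an epidermal score, as described below. Cediranib treated tumors had 0.500, 0.378 and 0.574 CPM, from 4, 5 or 6 counts each. Their log2 fold change against control was -1.25 (95% interval -2.37 to -0.14, unadjusted p = 0.0301 and FDR 0.999, edgeR), which did not pass, and the groups overlapped. Vegfd passed the low-count filter only through the trametinib and combination libraries. In control and cediranib treated tumors alone it was below the filter, so this p carries no weight. The combination exceeded cediranib by 3.43 on the log2 scale (standard error 0.47, FDR 0.00206, edgeR), the difference with the smallest FDR of any member in these comparisons.

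Vegfc, the other ligand of VEGFR3, had lower estimates with trametinib and the combination, which did not pass. Vegfc (chromosome 8, 54077606 to 54187096, plus strand) had 0.681, 3.45 and 9.496 CPM in control, 1.54, 1.05 and 1.09 CPM with trametinib and 3.00, 8.23 and 3.73 CPM with cediranib. In the combination it had 0.606 and 1.02 CPM in replicates 1 and 3 and 0 counts in replicate 2. The values with trametinib and cediranib lay within the control range, and those of combination replicates 1 and 2 lay below it. The log2 estimate was -3.04 for the combination (standard error 0.94, FDR 0.0609, edgeR) and -1.86 for trametinib (standard error 0.85, FDR 0.241, edgeR). Without control replicate 1, the lowest control, the combination passed at -3.56 (FDR 0.0195), and without control replicate 3, the highest, the estimate was -1.90 (FDR 0.272, edgeR). Per kilobase, Vegfd was below Vegfc in each of the 6 tumors without trametinib, with ratios from 0.0468 to 0.636. It was above Vegfc in each of the 5 trametinib or combination treated tumors with a count of Vegfc, with ratios from 4.01 to 12.4. As Vegfd was itself called, this ratio adds no test.

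Vegfa (chromosome 17, 46016993 to 46032369, minus strand) was not distinguishable between the groups. Control tumors had 407, 210.4 and 439 CPM, trametinib treated tumors 400.4, 223 and 233 CPM, cediranib treated tumors 215, 417 and 337 CPM, and combination treated tumors 379, 307 and 394 CPM. All groups overlapped. The log2 fold change against control was -0.30 with trametinib (95% interval -0.98 to 0.38), -0.13 with cediranib (-0.80 to 0.55) and 0.03 with the combination (-0.65 to 0.71). All 3 intervals lie within 1 log2 unit of 0.

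Vegfb (chromosome 19, 6982473 to 6987629, minus strand) had 15.1, 11.5 and 13.4 CPM in control and 20.9, 18.7 and 21.2 CPM with the combination, without overlap. It rose by 0.60 on the log2 scale (standard error 0.16, FDR 0.036, edgeR), under the minimum of 1.5. It passed without control replicate 1, but not without any other single library of these groups (FDR 0.0602 to 0.128, edgeR). With trametinib it had 18.2, 13.8 and 17.6 CPM (log2 fold change 0.31, 95% interval -0.04 to 0.66), and with cediranib 13.5, 14.9 and 14.4 CPM (0.10, -0.25 to 0.45). Both overlapped the controls. Pgf (chromosome 12, 85166635 to 85177790, minus strand) had 3, 1 and 13 counts in control, 1, 2 and 1 with trametinib, 4, 9 and 1 with cediranib and 1 in each combination library. A change in Pgf was not detectable at this depth. By exact permutation of log2 CPM (two-sided, 3 tumors against 3), p was 0.2 for trametinib, 0.9 for cediranib and 0.1 for the combination against control, and 0.1 is the smallest p this design allows.

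**Figure D3:**
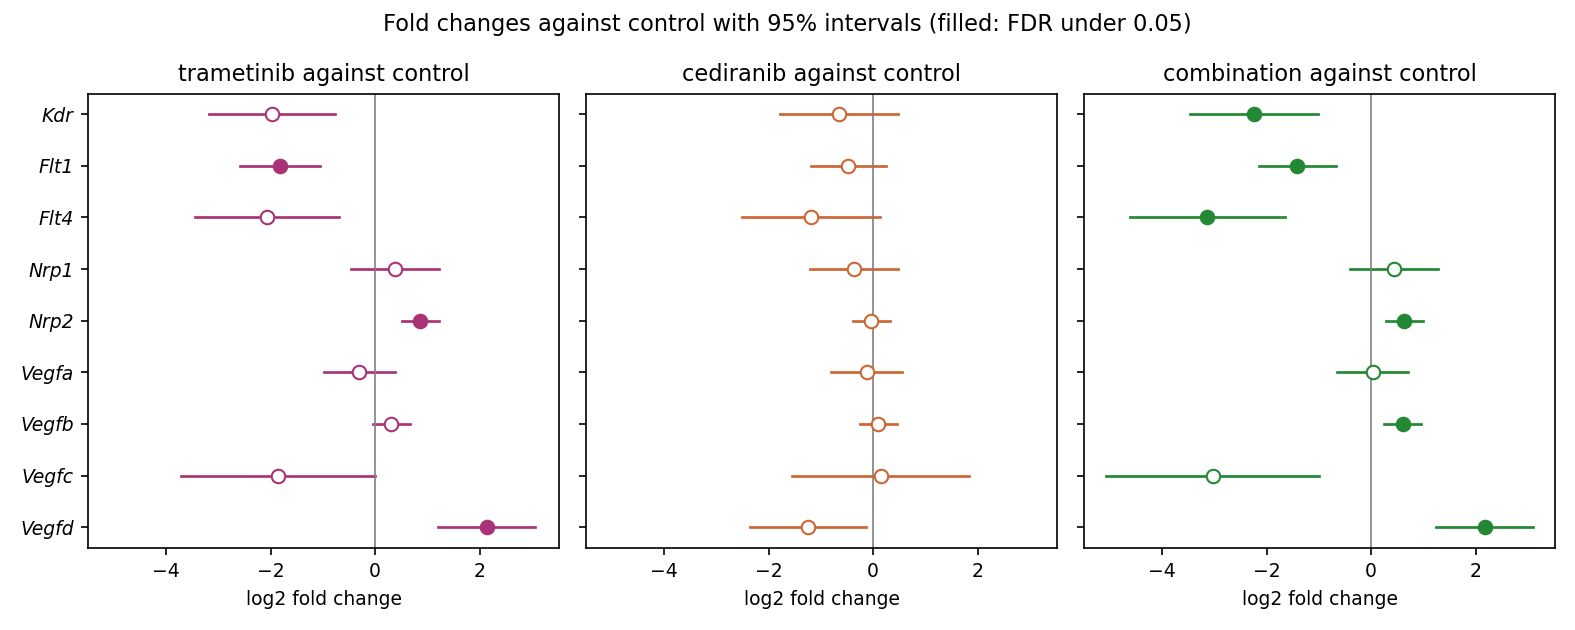
Log2 fold change against control (horizontal axis) of the 9 tested genes for trametinib, cediranib and the combination, with 95% intervals from edgeR, and filled symbols for an FDR under 0.05. Filled symbols stand for Flt1, Nrp2 and Vegfd with trametinib and for Kdr, Flt1, Flt4, Nrp2, Vegfb and Vegfd with the combination, and there is none with cediranib.

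Counted over the members, 3 of the 9 tested passed with trametinib compared to control (Nrp2 and Vegfd higher, Flt1 lower) and 2 were called (Flt1 and Vegfd). Of all genes tested 6.12% passed (2.64% higher, 3.47% lower) and 2.4% were called in this comparison. At an unadjusted p under 0.05 there were 6 members and 20.7% of all genes. DESeq2 and the likelihood ratio test passed 5 members each, and the fit without a low-count filter 6. Among all genes DESeq2 passed 595 higher and 714 lower, and the likelihood ratio test 514 and 641. The fit without the filter passed 789 and 901 of 29102. The median log2 fold change of the 9 members was -0.30, beside 0.01 for all genes. With the combination compared to control 6 passed, 3 in each direction, and 3 were called (Kdr, Flt4 and Vegfd), where 9.98% of all genes passed (4.85% higher, 5.13% lower) and 3.61% were called. At an unadjusted p under 0.05 there were 7 members and 27.2% of all genes. The median of the members was 0.03. The count of 6 fell to between 1 and 3 without control replicate 2 (2 members) or 3 (1 member), or without combination replicate 1 (2 members), 2 (2 members) or 3 (3 members). With cediranib compared to control 0 members passed by edgeR, and 0% of all genes did. Without the low-count filter 231 of 29102 genes passed higher and 258 lower. With the filter 1 member, Vegfd, and 4.32% of all genes had an unadjusted p under 0.05. Vegfd passed that filter only through the trametinib and combination libraries. DESeq2 and edgeR's likelihood ratio test also passed 0 members here, while they passed 8 and 13 genes higher and 4 and 3 lower among all genes. Values that did not overlap between groups were found for 3 members lower (Kdr, Flt1 and Flt4) and 2 higher with trametinib, where 12.9% of all genes did not overlap in each direction. With the combination there were 4 lower (the receptors and Pgf, whose 1 count per library was set against 1 to 13) and 3 higher (Nrp2, Vegfb and Vegfd), beside 15.7% and 15.6% of all genes. With cediranib Flt1 alone lay below control and 0 members lay above, beside 3.45% and 4.31% of all genes. These 3 comparisons share the control tumors.

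Adding cediranib to trametinib moved no member past the test. In combination compared to trametinib treated tumors 0 of 9 members passed by edgeR, and 0 had an unadjusted p under 0.05, while 0.969% of all genes passed (0.721% higher, 0.248% lower) and 17.9% had such a p. DESeq2 passed 0 members too, and 446 higher and 271 lower of all genes. With single libraries left out edgeR passed from 0 of all genes (without combination replicate 2) to 20 higher and 2 lower (without combination replicate 1). The estimates of the members ran from -1.17 for Vegfc (95% interval -3.34 to 0.99) and -1.07 for Flt4 (-2.61 to 0.47) to 0.41 for Flt1 (-0.35 to 1.17). Vegfb lay above and Vegfc below all trametinib values, as did 12.4% and 11.8% of all genes in these directions. The value for Vegfd was 0.04 (-0.80 to 0.87) and that for Nrp2 was -0.23 (-0.58 to 0.12). The interaction contrast asked whether the effect of cediranib differed with and without trametinib. Of the members 0 passed by edgeR and 0 had an unadjusted p under 0.05, compared to 0% and 7.05% of all genes. DESeq2 passed 0 members, and 30 genes higher and 7 lower among all genes. The interaction estimate of edgeR was 1.29 for Vegfd (95% interval -0.10 to 2.68) and 0.88 for Flt1 (-0.16 to 1.93).

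Adding trametinib to cediranib gave 2 members that passed, Vegfd and Nrp2, both higher, where 7.68% of all genes passed (3.9% higher, 3.78% lower) and 2.45% were called, as was Vegfd. At an unadjusted p under 0.05 there were 7 members and 23.1% of all genes. DESeq2 passed 6 members, the likelihood ratio test 4 and the fit without a low-count filter 7. Among all genes DESeq2 passed 783 higher and 743 lower, and the likelihood ratio test 654 and 627. The fit without the filter passed 992 and 730 of 29102. Nrp2 exceeded cediranib by 0.67 on the log2 scale (standard error 0.16, FDR 0.0287, edgeR), but did not pass without cediranib replicate 1 (FDR 0.102) or 3 (FDR 0.0891) or combination replicate 2 (FDR 0.0811) or 3 (FDR 0.0901, edgeR). Kdr, Flt1 and Flt4 had log2 fold changes of -1.58, -0.94 and -1.94 with an FDR of 0.109 to 0.119 (edgeR). They did not pass, although the combination values of all 3 lay below all cediranib values. Including Vegfc 4 members lay below all cediranib values and 3 above (Nrp2, Vegfb and Vegfd), beside 14.3% and 14.1% of all genes. The estimate for Vegfc was -3.18 (standard error 0.94, FDR 0.0601, edgeR).

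Ratios of ligand to receptor levels were computed in each tumor, without a test. Vegfa per kilobase was 183, 51.5 and 46.3 times Kdr in the control tumors and 79.5, 74.9 and 195 times Kdr with cediranib. It was 547, 116 and 173 times Kdr with trametinib and 329, 264 and 389 times with the combination. The trametinib range overlapped that of control, and the combination range did not. For Flt1 the same ratio was 35.8 to 70.8 in control, 61.6 to 76.5 with cediranib, 142 to 181 with trametinib alone and 119 to 288 after both drugs, and the ranges with trametinib or the combination lay above control, while that with cediranib overlapped it. The summed level of the 3 kinase receptors was 2.34 to 5.60 CPM per kilobase in control and 0.842 to 1.05 with trametinib alone. The summed level of both neuropilins was 19.6 to 23.5 in control and 38.1 to 40.4 CPM per kilobase with trametinib. These sums are dominated by Nrp2 among the neuropilins and describe the values above in another form.

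Endothelial marker genes were also lower in the trametinib and combination treated tumors. SVR is itself endothelial, so these markers do not separate tumor cells from host vessels. The summed level of 15 endothelial markers was 237 to 483 CPM in control, 144 to 377 CPM with cediranib, 109 to 171 CPM with trametinib and 77.3 to 135 CPM with the combination. Of the 11 tested, 4 passed lower with trametinib and 5 with the combination, beside 3.47% and 5.13% of all genes, and 0 passed higher. Among the lower genes were Pecam1 (-2.38 and -2.93 on the log2 scale) and Tie1 (-1.97 and -2.43). Eng, of the same list, had a median of 61.2 CPM in control, 61.5 CPM with trametinib and 50.3 CPM with the combination. Emcn and Clec14a had 0 counts in all trametinib treated tumors, but Clec14a also had 0 in all cediranib treated tumors, and control tumors had at most 0.303 CPM of Emcn and 0.101 CPM of Clec14a, at or under the level of 3 counts. The mean log2 CPM of the 11 genes, called the endothelial score here, was 2.80 to 4.11 in control, 2.14 to 3.61 with cediranib, 1.82 to 2.38 after trametinib and 1.22 to 1.796 after both drugs. In the 6 tumors without trametinib Pearson's r of log2 CPM with this score was 0.98 for Kdr, 0.93 for Flt4, 0.86 for Nrp1, 0.72 for Flt1 and 0.28 for Nrp2. In the 6 tumors with trametinib it was 0.12 for Kdr, 0.77 for Flt4 and 0.24 for Flt1. These are descriptions over tumors that share libraries and groups. With the endothelial score held fixed in the edgeR model, the log2 fold change with trametinib was -0.31 for Kdr, -0.19 for Flt4, -1.32 for Flt1 (FDR 0.147), 0.92 for Nrp2 (FDR 0.0589) and 2.77 for Vegfd (FDR 0.054). No member passed in the comparisons of trametinib or the combination to control. Among all genes 184 passed higher and 205 lower with trametinib in this model, and 14 and 15 with the combination. The score of control tumors did not overlap that of either group, so this model cannot separate the score from treatment. For the combination, Kdr, which was called at -2.24 without the score, changed direction to 0.10 (FDR 0.98), and Vegfc moved to 0.12. Flt4 was at -0.52, Flt1 at -0.73, Nrp2 at 0.72 and Vegfd at 3.04 (FDR 0.189, edgeR). Lymphatic markers were near the detection limit. Mmrn1 and Ccl21a had 0 counts in all 4 groups and Prox1 in control, and the 6 markers summed to 0.921 to 4.36 CPM over all tumors.

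**Figure D4:**
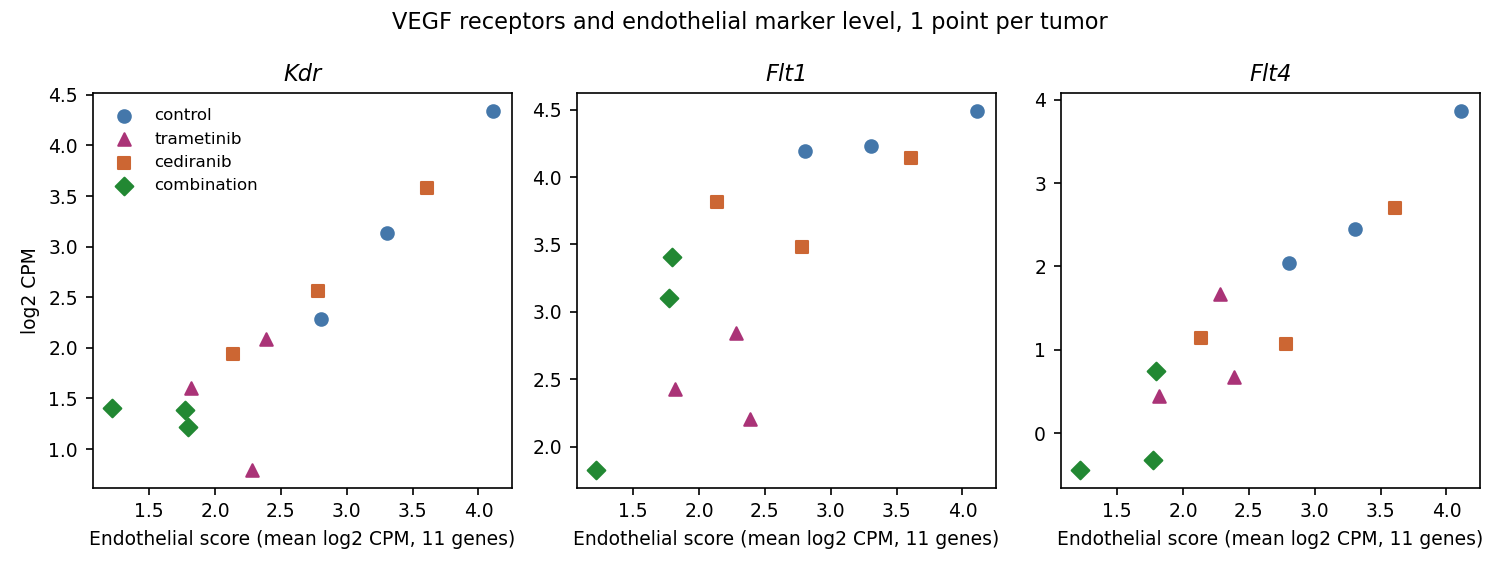
Log2 CPM of Kdr, Flt1 and Flt4 (vertical axes) against the endothelial score (horizontal axes, mean log2 CPM of 11 endothelial marker genes), with 1 point per tumor. The control tumors lie at scores of 2.80 to 4.11 and the combination treated tumors at 1.22 to 1.796. The cediranib treated tumor at 2.14 is the only one of its group within the range of scores of the 3 trametinib treated tumors. In that 1 tumor Flt1 lies above the values of the trametinib treated tumors, while Kdr and Flt4 lie within them.

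Markers of other cell types are given for the same tumors. Of all genes 2.64% passed higher and 3.47% lower with trametinib, 0% with cediranib, and 4.85% and 5.13% with the combination, compared to control. Epidermal markers (28 genes, 24 tested) summed to 58.3 to 116 CPM in control, 48.2 to 70.4 CPM with trametinib, 86.7 to 347 CPM with cediranib and 401 to 611 CPM with the combination. Of these genes 11 passed higher with the combination compared to control, and with trametinib 12 of the 28 had 0 counts in all tumors. With the epidermal score (mean log2 CPM of the 24 genes) held fixed, 5 members passed with trametinib compared to control, Kdr and Flt4 in addition to Flt1, Nrp2 and Vegfd, and 0 with the combination. In that model the combination value was -0.49 for Kdr, -1.23 for Flt4, -0.88 for Flt1, 0.90 for Nrp2 and 2.89 for Vegfd (FDR 0.19, edgeR). Fibroblast markers, which include Pdgfra, summed to 2224 to 21145 CPM in control and 8855 to 37111 CPM with trametinib, and 2 of 8 tested passed higher, although the sums overlapped. Macrophage markers summed to 406 to 702 CPM in control and 182 to 324 CPM with the combination, and 4 of 12 passed lower. Pericyte markers ran from 69.2 to 358 CPM in control and 116 to 944 CPM with trametinib, and adipocyte markers from 4.17 to 7.17 and 8.53 to 39.9 CPM. The adipocyte sums did not overlap, and 1 of 4 tested passed higher with trametinib, Plin4 (3.56 on the log2 scale). Skeletal muscle markers ran from 5.86 to 16830 CPM in control and 224 to 23624 CPM with trametinib. These muscle and pericyte ranges overlapped, and 0 of 8 muscle markers passed against control by edgeR. DESeq2 passed 0 with either single drug and 2 with the combination, and 0, 7 and 5 had an unadjusted p under 0.05 with trametinib, cediranib and the combination. Of the tested pericyte markers 1 passed lower with trametinib, and with the combination 1 passed higher and 4 lower. Their part in the members' values was not tested.

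**Figure D5:**
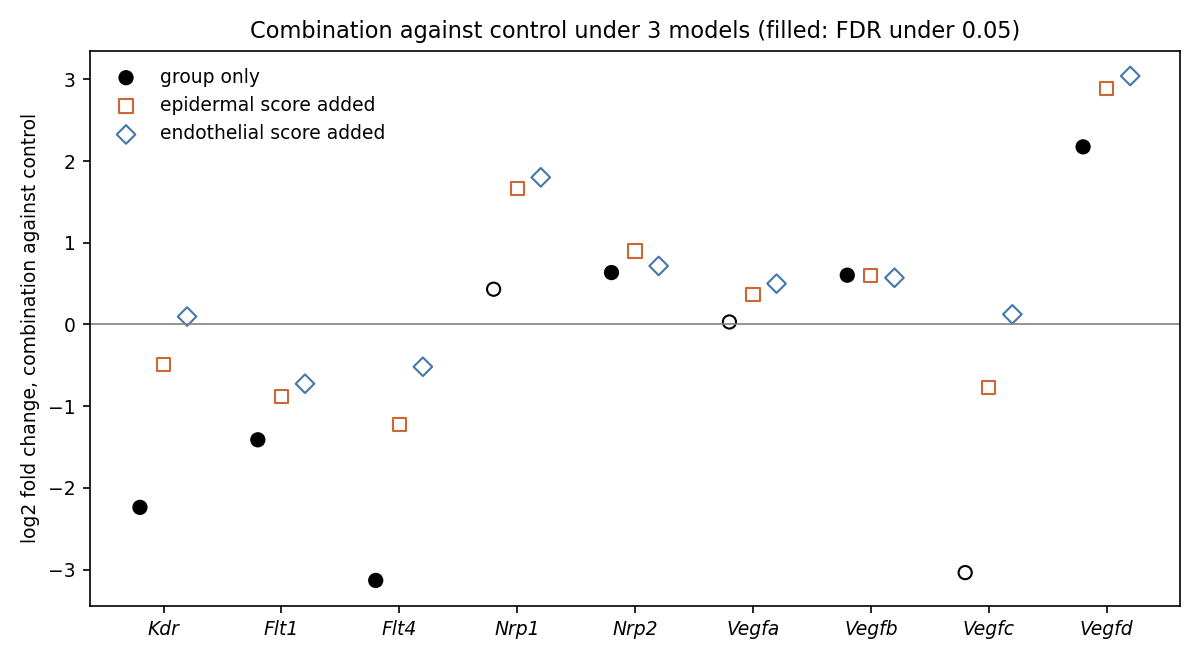
Log2 fold change of the 9 tested genes for combination compared to control (vertical axis) in the model with groups only and in models that also hold the epidermal or the endothelial score, with filled symbols for an FDR under 0.05. With either score Kdr and Flt4 lie nearer to 0, Vegfd stays above 2, and no symbol of either added model is filled. Neither score overlaps between control and combination treated tumors.

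Of 44 genes that carry the signal of VEGFR2 42 were tested. With trametinib compared to control 1 passed higher and 3 lower, where 2.64% and 3.47% of all genes did, with a median log2 fold change of -0.01. At an unadjusted p under 0.05 there were 12 of the 42, beside 20.7% of all genes. The 3 lower genes were Pxn (paxillin, -0.87), Ptk2 (focal adhesion kinase, -0.55) and Nos3 (endothelial nitric oxide synthase), with a mean of 220.2 CPM in control and 40.5 CPM after trametinib (log2 fold change -2.45, standard error 0.42, FDR 0.00515, edgeR). With the endothelial score held fixed Nos3 was at -1.87 (FDR 0.0786, edgeR), and 0 genes of the list passed with trametinib or the combination. Among all genes 184 passed higher and 205 lower with trametinib in that model, and 14 and 15 with the combination. With the combination 4 passed higher and 3 lower (4.85% and 5.13% of all genes), among them Prkca, a protein kinase C gene, at 0.63. With cediranib 0 did by edgeR or DESeq2, where 0% of all genes passed by edgeR. At an unadjusted p under 0.05 there were 0 with cediranib, beside 4.32% of all genes. At that p there were 14 of the 42 with the combination, beside 27.2% of all genes. With the epidermal score held fixed 0 of the 42 passed with the combination, where 24 of all genes passed higher and 34 lower. Of 25 genes that VEGF induces in endothelium 21 were tested. With trametinib 8 passed lower and 0 higher, with a median of -0.51, where 3.47% and 2.64% of all genes did. With the combination 8 passed lower and 1 higher, with a median of -0.65, beside 5.13% and 4.85% of all genes. Hbegf, an EGF-type ligand, went from 7.27 CPM in control to 1.31 CPM with trametinib (log2 fold change -2.47), and Egr3, an early response factor, from 59.4 to 10.54 CPM (-2.50). Pdgfb, which recruits pericytes, was 9.64 CPM in control and 1.58 CPM with the combination (-2.60). Egr3 and Hbegf are also known as targets of ERK. With the endothelial score held fixed 2 of the 21 passed with trametinib and 0 with the combination, and with the epidermal score 7 and 0 passed. Among all genes 332 passed higher and 442 lower with trametinib and the epidermal score. With cediranib 0 of the 21 passed by edgeR or DESeq2. Among all genes edgeR passed 0% and DESeq2 8 higher and 4 lower in that comparison. Of the 21, 1 had an unadjusted p under 0.05, beside 4.32% of all genes. Their median was -0.37, beside -0.003 for all genes.

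Partners of the receptors and enzymes that process the ligands gave 3 genes lower and 0 higher of 19 tested with trametinib, and 5 lower with the combination, where 3.47% and 5.13% of all genes passed lower. They include Cdh5 (VE-cadherin, -1.99 and -2.37), which is also an endothelial marker, and Furin, a protease that cleaves VEGF-C and VEGF-D precursors (-0.85 and -0.64). Among the semaphorin ligands of the neuropilins and the plexins, 11 of 12 were tested. With trametinib 3 passed higher and 2 lower, beside 2.64% and 3.47% of all genes. Sema3a, a neuropilin ligand, went from 13.7 to 38.7 CPM (log2 fold change 1.499), while Plxnd1 and Plxna4, signaling partners of neuropilins, had -1.35 and -2.36. With the combination 2 passed higher, Sema3a (1.62) and Sema3c (2.19), and 2 lower, beside 4.85% and 5.13% of all genes. With the endothelial score held fixed 1 gene of the former list and 2 of the latter passed with trametinib, where 184 of all genes passed higher and 205 lower. With cediranib 0 genes of either list passed by edgeR or DESeq2, where 0% of all genes passed by edgeR. In the order of the lists 1 and 0 had an unadjusted p under 0.05, beside 4.32% of all genes. With an epidermal or endothelial score held fixed, at most 1 gene of either list passed with the combination. In these models 24 and 14 of all genes passed higher and 34 and 15 lower. Oxygen sensing genes had 0 of 8 passing with trametinib by edgeR or DESeq2 (2 at an unadjusted p under 0.05) and 1 higher with the combination, the prolyl hydroxylase gene Egln2 (0.59). Of 12 tested targets of hypoxia 0 passed against control by edgeR or DESeq2. By edgeR 6.12% of all genes passed with trametinib, 0% with cediranib and 9.98% with the combination. At an unadjusted p under 0.05 there were 1, 0 and 1 of the 12 targets in this order. Their median log2 fold change was 0.17 with trametinib, 0.02 with cediranib and 0.28 with the combination.

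Over the 12 tumors, the genes whose log2 CPM was most like that of Vegfa were Mxi1 (Pearson's r = 0.84), Zswim5 (0.84), 1190002N15Rik (0.83), Rusc2 (0.82) and Ero1l (0.81). For Kdr they were Rab11a (0.96), Ass1 (0.95), Ppp4c (0.95), Ncstn (0.94) and Prex1 (0.94). They are the highest values among all other tested genes, of which 1% exceeded 0.62 for Vegfa and 0.84 for Kdr, and the tumors share their treatments and libraries.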

How the data were processed

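Whole tumor RNA of 12 SVR xenografts, 3 per treatment, was captured with exome probes and sequenced. The authors aligned reads to GRCm38 with STAR 2.7.1a and used featureCounts 1.6.0 for gene-level counting, and the deposited values are raw counts, without normalization. For the annotation release, strand and multimapping reads, the settings were not given in the sources used here. Groups came from the sample titles, and 0 columns were left over.

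Counts were scaled with TMM and fitted in 1 quasi-likelihood model over all 12 libraries (edgeR 4.0.16, R 4.3.3), after filterByExpr (minimum count 10, minimum total 15). Benjamini-Hochberg adjustment ran over 12897 genes. Standard errors are the absolute log2 fold change over the square root of F, and 95% intervals use the same degrees of freedom. Log2 CPM used a prior count of 2. Lengths are the deposited exon lengths. Alternatives were other scalings, no filter, DESeq2 1.42.0, the likelihood ratio test, fits of the compared groups alone, a replicate block, an epidermal or endothelial score, and each library left out.

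Members, lists and tests were chosen with earlier results of these data known. All members are named, and of each list at most the 3 genes with the smallest FDR among those that passed in a comparison. Of genes alike in pattern, the 5 with the highest Pearson's r are named for Kdr and Vegfa. The labels do not say whether the 3 tumors of a group came from separate mice. The study's methods describe injection into the flank of each mouse. The p-values measure the spread between these samples.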

Additional observations from a re-analysis of the deposited data

How the results depend on the processing

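For trametinib compared to control 3 members passed, and 6 did without the low-count filter, 5 with DESeq2, 5 with the likelihood ratio test, 5 with the epidermal score and 0 with the endothelial score in the model. Among all genes 332 passed higher and 442 lower with the epidermal score, and 184 and 205 with the endothelial score. For combination compared to control the count of 6 became 0 with either score. Among all genes 14 then passed higher and 15 lower with the endothelial score, and 24 and 34 with the epidermal score, against 626 and 661. For combination compared to cediranib the count of 2 became 7 without the filter, 6 with DESeq2, 4 with the likelihood ratio test, 1 with the compared groups alone and 1 with the endothelial score. Among all genes the compared groups alone passed 373 higher and 311 lower of 12169, and the endothelial score 128 and 106 of 12897. With single libraries left out the member counts ran from 3 to 4, from 1 to 7 and from 1 to 2 in these comparisons. They stayed at 0 for cediranib compared to control, combination compared to trametinib and the interaction. The cause of these moves was not tested.

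Some estimates of members that did not pass changed sign (log2 scale throughout). With the epidermal score in the model these were Nrp1 at -0.053 for trametinib compared to control, then Kdr at 0.18, Nrp1 at 0.19, Nrp2 at 0.088 and Vegfa at 0.025 for cediranib compared to control. For combination compared to trametinib they were Kdr at 2.00, Flt4 at 1.41, Nrp2 at 0.15 and Vegfc at 1.64, and for the interaction Nrp2 at 0.059 and Vegfc at 0.29. With the endothelial score they were Vegfa at 0.022 and Vegfc at 0.55 for trametinib compared to control, and Kdr at 0.045 and Vegfa at 0.015 for cediranib compared to control. Kdr, which had passed for combination compared to control, moved to 0.10 there, and Vegfc to 0.12. Kdr was 0.41 for combination compared to trametinib and 0.052 compared to cediranib.

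With single libraries left out, signs changed within these ranges. Compared to control, cediranib ran from -1.25 to 0.082 for Kdr, -0.22 to 0.062 for Nrp2, -0.39 to 0.10 for Vegfa and -0.42 to 1.29 for Vegfc, and the combination from -0.24 to 0.22 for Vegfa. Combination compared to trametinib ran from -0.56 to 0.080 for Kdr, -0.25 to 0.35 for Nrp1 and -0.25 to 0.20 for Vegfd, and compared to cediranib from -0.069 to 0.38 for Vegfa. The interaction ran from -0.34 to 0.99 for Kdr and -0.65 to 0.92 for Flt4.

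Replicate numbers gave no sign of pairing. A correlation of deviations over 0.1 was found in 3 of 18 same-numbered pairs and 4 of 36 others, with medians of -0.008 and 0.007. With the replicate block 3, 0, 6, 0, 2 and 0 members passed, as without it, and Flt4 in the interaction was -0.093. Scaling by library totals alone shifted the median of all genes by 0.13 for combination compared to control, where 866 genes passed higher and 442 lower, against 626 and 661 with TMM. For combination compared to cediranib this was 632 and 302 against 503 and 488, and compared to trametinib 146 and 26 against 93 and 32. Vegfd for cediranib compared to control had no value with the compared groups alone, since it was below the filter. Low counts limit Pgf, Vegfc, Vegfd and Flt4.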
